A study of Mus musculus with 18 samples.

Results

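The genes Gnal, Ptprz1, Otop2 and Tat, which have unrelated functions, were followed across every group of a mouse array study on the transcription factor Stat3 in intestinal epithelium and intestinal tumours. They are 4 of the 19938 genes that the platform annotation gave a probe set of their own, each is read by 1 probe set, and all 4 were among the 17316 genes tested. They were chosen because they had lower values in Stat3-deleted than in control tumours and belong to no classic list of STAT3 targets, so their tumour differences are described and not tested. The series was made to learn if intestinal tumours of APCmin mice need Stat3 to progress. The mutant Apc allele of these mice activates WNT signalling.

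The 18 arrays fell into 6 groups of 3: Stat3-deleted and control epithelial cells (replicates 4 to 6 and 1 to 3), Stat3-deleted and control male tumours (10 to 12 and 7 to 9), and Stat3-deleted and control female tumours (16 to 18 and 13 to 15). The labels write the genotypes as STAT3-/- and STAT3fl/fl. Per the series text both kinds of mouse carry floxed Stat3 alleles, the deleted mice also carry a Cre recombinase under the Villin promoter, and the tumours grew in APCmin/+ mice. The Villin promoter drives Cre in epithelial cells, so the stroma and immune cells of a deleted tumour keep their Stat3. The sample descriptions call the tumours colorectal and attribute them to azoxymethane and dextran sulfate, while the series text places APCmin tumours mostly in the small intestine; the gut segment of each tumour is therefore unknown. No strain or age is given, the epithelial cells carry no label for sex, Apc genotype or gut segment, and nothing states that the 3 samples of a group came from different animals. The p-values below thus set differences against the spread among these samples. Some of that spread may be technical, so the p-values may not extend to other mice.

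Gnal encodes Golf alpha, a stimulatory G protein subunit that passes signals from odorant and dopamine receptors to adenylyl cyclase, which makes cAMP. Ptprz1 encodes a receptor-type tyrosine phosphatase of neural and glial cells that carries chondroitin sulfate chains and binds the growth factors pleiotrophin and midkine. Otop2 encodes a proton channel of the otopetrin family; in the human colon its orthologue marks a subset of absorptive cells that also express BEST4. Tat encodes tyrosine aminotransferase, the liver enzyme that opens the tyrosine breakdown pathway and is a textbook target of glucocorticoids and cAMP.

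The RefSeq promoter table (GRCm38.p6) held 3 of the 4 genes, in 4 windows of 250 bases upstream of a transcription start. They are shown because the 4 genes were grouped through Stat3, and STAT factors bind a palindrome that can be read off the sequence. The Ptprz1 window is chr6:22875252-22875501, the Otop2 windows are chr11:115306913-115307162 and chr11:115322280-115322529, and the Tat window is chr8:109990186-109990435, all on the plus strand. Capitals mark the CCAAT box, the only searched motif that was found.
Ptprz1: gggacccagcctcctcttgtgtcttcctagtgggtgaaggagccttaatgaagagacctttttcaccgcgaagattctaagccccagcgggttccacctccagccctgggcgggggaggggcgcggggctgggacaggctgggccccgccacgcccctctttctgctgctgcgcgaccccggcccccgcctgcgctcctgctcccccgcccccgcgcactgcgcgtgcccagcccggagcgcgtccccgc
Otop2, upstream start: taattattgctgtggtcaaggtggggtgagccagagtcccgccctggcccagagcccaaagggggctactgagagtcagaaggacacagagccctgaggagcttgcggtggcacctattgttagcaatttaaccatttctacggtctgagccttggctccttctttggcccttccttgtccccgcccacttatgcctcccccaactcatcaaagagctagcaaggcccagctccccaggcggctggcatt
Otop2, downstream start: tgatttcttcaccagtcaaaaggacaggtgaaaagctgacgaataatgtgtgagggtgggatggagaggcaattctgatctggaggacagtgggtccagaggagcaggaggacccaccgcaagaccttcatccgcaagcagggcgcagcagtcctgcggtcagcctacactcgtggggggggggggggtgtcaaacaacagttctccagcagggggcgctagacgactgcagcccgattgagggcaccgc
Tat: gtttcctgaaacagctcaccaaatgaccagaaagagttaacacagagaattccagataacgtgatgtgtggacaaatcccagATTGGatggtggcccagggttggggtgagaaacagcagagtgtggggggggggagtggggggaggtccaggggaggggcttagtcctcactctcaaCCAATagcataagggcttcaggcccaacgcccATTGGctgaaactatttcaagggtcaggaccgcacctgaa
Both strands were searched for the STAT palindrome with a spacer of 3 bases (TTCNNNGAA) or 4 bases (TTCNNNNGAA), for the CDX motif TTTATG and for CCAAT. Neither STAT palindrome nor the CDX motif was in any of the 4 windows; among the 32851 promoters of the table, 7.02% held the first palindrome, 5.85% the second and 10.8% the CDX motif. The Tat window held 3 CCAAT boxes, on either strand, and CCAAT was in 33.8% of all promoters. The windows differed in base composition, with 71.6% G and C for Ptprz1, 57.2% and 59.2% for Otop2 and 53.6% for Tat. These are matches of letters in short windows and say nothing about binding elsewhere.

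All values are RMA log2 expression as deposited, so a difference of 1 is a doubling; values of different genes come from different probes and are not compared as levels. Across arrays the 25th percentile of all probe sets lay between 4.30 and 4.57 and the median between 5.88 and 6.07. Stat3 itself followed its labels, with 7.73 to 7.95 in deleted and 9.75 to 9.91 in control epithelial cells and with 7.74 to 8.46 in deleted and 10.03 to 10.35 in control tumours. The epithelial marker Epcam was between 11.38 and 11.96 on all 18 arrays. Control tumours 9 (male) and 15 (female) stood apart from the other control tumours: the posterior gut gene Hoxd13 was 8.25 and 9.10 in them against 4.82 to 5.30 in the other 4, the colonic carbonic anhydrase Car1 was 10.90 and 10.24 against 4.48 to 5.05, and the small-intestinal factor Gata4 was 6.92 and 6.84 against 8.86 to 9.37. The 6 Stat3-deleted tumours had Hoxd13 of 4.95 to 5.59; their Car1 was 4.36 to 4.96 except in female tumour 16, where it was 8.40. The tumour comparisons of the 4 genes are therefore given with and without control tumours 9 and 15.

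Gnal had high values in control tumours and low values in the other 4 groups. In male tumours it was 4.63, 5.04 and 4.99 in Stat3-deleted samples, against 7.02, 6.40 and 7.71 in control samples. In female tumours it was 4.70, 4.95 and 4.94 in Stat3-deleted samples, against 6.93, 6.17 and 7.44 in control samples. The highest deleted tumour lay 1.13 below the lowest control tumour, so the genotypes did not overlap in either sex. The mean difference over both sexes was -2.07 (SE 0.21), which is 4.20-fold lower in the deleted tumours, at rank 9 of 17316 genes counted from the lowest difference. The 6 epithelial arrays, with 5.14, 5.02 and 4.81 in deleted and 4.93, 4.88 and 5.20 in control cells, sat at the level of the deleted tumours, below the array median and above the 25th percentile.

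Ptprz1 had the largest tumour difference of the 4 genes and the most uneven control tumours. It was 4.01, 4.01 and 3.85 in Stat3-deleted male tumours, against 6.26, 5.12 and 8.92 in control male tumours. Female tumours had 4.14, 4.25 and 3.80 in the deleted samples, against 5.98, 6.12 and 8.60 in the control samples. The genotypes were separated by 0.88, while the control tumours spanned 3.80 and the deleted tumours 0.45. The mean difference of the deposited values was -2.83. The 2 highest control values belong to tumours 9 and 15, and without them the difference was -1.86. In male tumours it was -2.81 with all arrays and -1.73 without replicate 9. All 6 deleted tumours and all 6 epithelial arrays (4.03, 3.39 and 3.93 in deleted cells, 3.55, 3.96 and 4.03 in control cells) were under their array's 25th percentile, where a level cannot be told from background. With the array's 25th percentile as floor, the deleted tumours were at least 5.56-fold lower than the control tumours, and at least 2.85-fold lower without tumours 9 and 15. Ptprz1 passed the filter on low values only through the control tumours.

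Otop2 was measurable in every group, and 5 of its 6 deleted tumours were below all 6 epithelial arrays. Stat3-deleted male tumours had 6.62, 6.17 and 6.22, against 8.64, 7.15 and 7.48 in control male tumours. Stat3-deleted female tumours had 5.87, 6.21 and 6.13, against 8.39, 7.70 and 7.82 in control female tumours. The gap between the genotypes was 0.53, the narrowest of the 4 genes, and the mean difference was -1.66 (SE 0.21), 3.16-fold lower, at rank 19. Epithelial cells had 7.16, 6.58 and 6.85 with the deletion and 6.60, 6.85 and 6.76 without it, with means between those of both tumour genotypes and values above the array median on all 6 arrays. In males the difference of -1.42 depended most on control replicate 7, without which it was -0.98. Tumours 9 and 15 had 7.48 and 7.82, inside the range of 7.15 to 8.64 of the other control tumours.

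Tat had the most even control tumours. It was 6.24, 6.08 and 5.82 in Stat3-deleted male tumours, against 7.48, 7.28 and 7.13 in control male tumours. It was 6.16, 5.62 and 6.41 in Stat3-deleted female tumours, against 7.63, 7.64 and 7.54 in control female tumours. The deleted tumours were spread more widely (SD 0.29 over 6 arrays) than the control tumours (SD 0.21), and a gap of 0.72 separated them. The mean difference was -1.39 (SE 0.14), 2.63-fold lower, at rank 30. Epithelial cells had 6.25, 6.24 and 5.79 with the deletion and 6.60, 6.29 and 6.67 without it, so that deleted cells and deleted tumours lay close together.

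**Figure D1:**
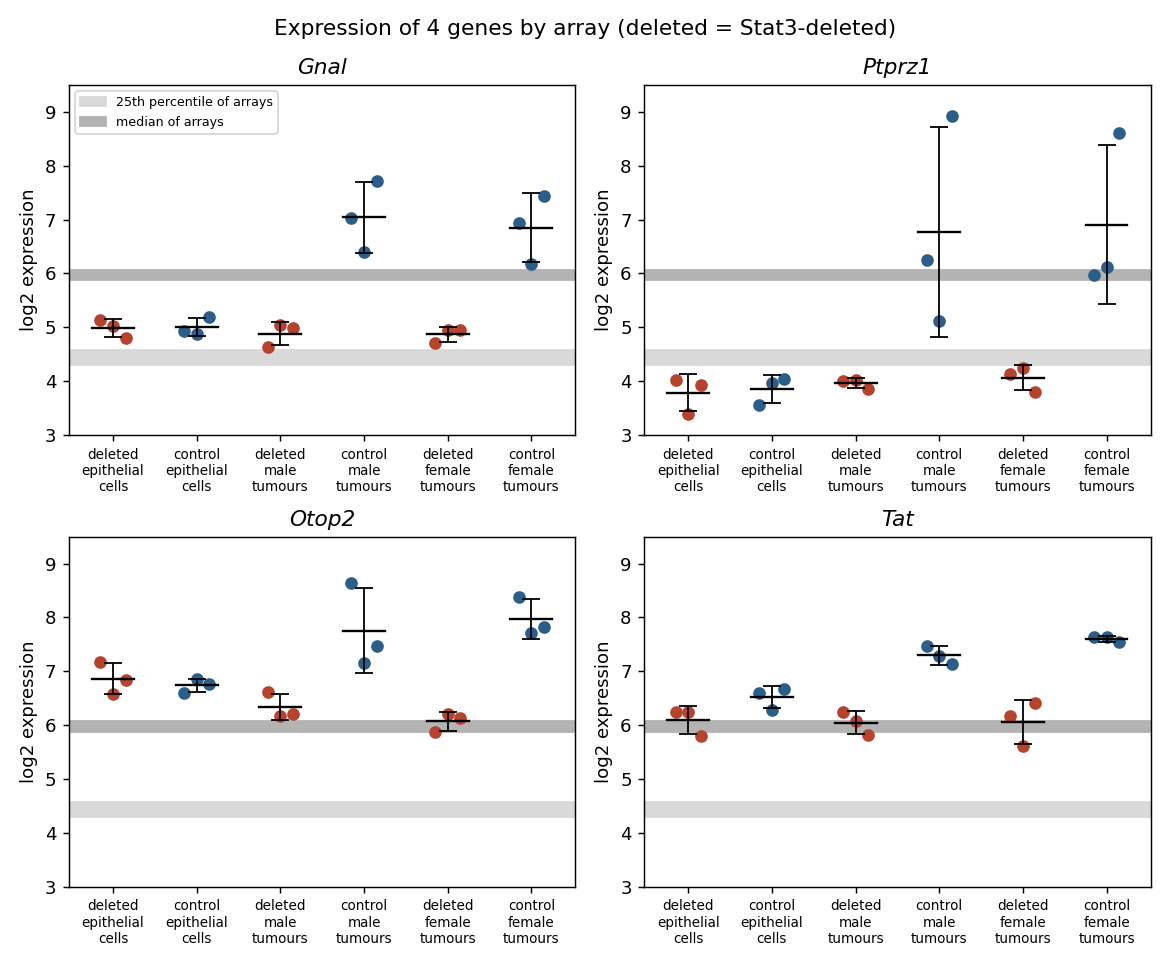
Each point is the log2 expression of 1 array, with the Stat3-deleted group left of its control in each tissue. Horizontal lines are means and bars SDs of 3 arrays. Grey bands give the range over arrays of the 25th percentile and of the median of all probe sets. The 6 control tumours lie above the 6 deleted tumours for each gene, by a gap of 1.13 for Gnal, 0.88 for Ptprz1, 0.53 for Otop2 and 0.72 for Tat.

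For all 4 genes each of the 6 deleted tumours was below each of the 6 control tumours, a pattern shared by 198 of the 17316 genes (1.14%) and fixed by how the genes were chosen. These are whole tumours, so fewer cells of a type and less RNA per cell cannot be told apart. Epithelial markers averaged 10.88 to 11.26 in the deleted and 10.56 to 11.26 in the control tumours, and 0 of 12 differed between genotypes by limma's adjusted p. Smooth muscle and fibroblast markers averaged 8.55 to 9.76 in deleted and 8.89 to 9.29 in control tumours (0 of 13 called), against 5.996 to 6.45 in epithelial cells. None of the 7 glial and Schwann cell markers or the 13 enteroendocrine and neuronal markers was called; the glial list averaged 6.16 to 6.55 in deleted and 6.05 to 6.73 in control tumours. Among other cell types, 1 of 12 myeloid markers and 1 of 13 tuft cell markers was lower in deleted tumours, where 0.71% of all genes were called and 0.422% were lower. The neutrophil surface gene Ly6g differed by -2.99 (limma adjusted p = 0.00193) and the tuft cell gene Avil by -1.20 (limma adjusted p = 0.00226). The tuft list had a median difference of 0.21 and reached 1.51, against a median of -0.04 for all genes, and its ion channel gene Trpm5 differed by 0.84 (limma adjusted p = 0.123). The myeloid list averaged 6.35 to 8.06 in deleted and 6.75 to 8.48 in control tumours, and the tuft list 5.64 to 6.58 in deleted and 5.71 to 5.95 in control tumours. T and NK cell markers (0 of 12) and B and plasma cell markers (0 of 6) did not pass, and of 15 small-intestinal markers 1 was lower, the ileal bile acid transporter Slc10a2 (-2.03, limma adjusted p = 0.000315). The ileal gene Fabp6 had the lowest difference of that list but did not pass (-2.89, limma adjusted p = 0.0946). Slc10a2 was 3.91 to 4.62 in deleted and 5.28 to 7.72 in control tumours, and Fabp6 was 4.27 to 4.62 and 4.78 to 11.10. The median of the small-intestinal list was 0.60, and the lactase gene Lct differed by 1.69 (adjusted p = 0.216) and Gata4 by 1.09 (adjusted p = 0.256). The part of these cell types in the 4 genes' differences was not tested.

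In epithelial cells outside tumours, which the choice of genes did not use, no gene of the 4 passed the test of Stat3 deletion. Gnal differed by -0.02 (95% interval -0.64 to 0.61, limma adjusted p = 0.995) and Otop2 by 0.13 (-0.50 to 0.75, adjusted p = 0.943). For Ptprz1, at -0.07 with an interval from -1.59 to 1.45 (adjusted p = 0.989), the signal was at background in both genotypes and could not show a deletion effect. As in all these tests, the spread was estimated over all 6 groups. The Ptprz1 interval thus reflects its uneven control tumours (SD 1.55 over 6 arrays) and not the spread of epithelial cells. Tat was the only one of the 4 whose 3 deleted arrays were all below its 3 control arrays, as for 7.81% of all genes, and it differed by -0.43 (-0.84 to -0.01, unadjusted p = 0.0435, limma adjusted p = 0.722). Weighting arrays by limma's array weights moved Tat to -0.56 with a limma adjusted p of 0.0373. That fit called 1134 genes, where the unweighted fit called 4 of 17316 (0.0231%). Deleted replicate 6, with the lowest Tat (5.79), had a weight of 4.87, against 0.298 and 0.586 for deleted replicates 4 and 5. Leaving replicate 6 out of the unweighted fit gave -0.28. Tat's other alternatives in this tissue had adjusted p from 0.358 to 1. In these cells T and NK cell markers, of which 0 of 12 passed and 9 had an unadjusted p under 0.05, averaged 7.45 to 8.98 in deleted and 6.74 to 7.34 in control samples; their part in the Tat difference was not tested.

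Female and male tumours showed no detectable difference in how far Gnal, Otop2 and Tat differed with the deletion. The female minus male difference of effects was 0.18 for Gnal (95% interval -0.71 to 1.06), -0.03 for Ptprz1 (-2.18 to 2.12), -0.48 for Otop2 (-1.36 to 0.40) and -0.29 for Tat (-0.88 to 0.30), each with a limma adjusted p of 1. Without control tumours 9 and 15 these values were 0.14, -0.26, -0.415 and -0.24, again with an adjusted p of 1. By sex, the deletion differences in female and male tumours were -1.98 and -2.16 for Gnal, -2.84 and -2.81 for Ptprz1, -1.90 and -1.42 for Otop2, and -1.54 and -1.25 for Tat; in these comparisons 0.104% of all genes were called in female and 0.231% in male tumours. The test of the female minus male difference called 0 of 17316 genes, with 162 at an unadjusted p under 0.05. Averaged over genotypes, male and female tumours differed by at most 0.16 in size for any of the 4 genes (Tat, -0.16 male minus female, adjusted p = 0.761), and without tumours 9 and 15 by at most 0.23 (Ptprz1, -0.23, adjusted p = 0.703). Ptprz1 was at background in the deleted tumours of both sexes. Its sex comparisons therefore rest on the control tumours and cannot show if a deletion effect differs between the sexes.

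Averaged over both genotypes, tumours had higher Gnal and Tat than epithelial cells, through the control tumours alone. These averages include the tumour values the genes were chosen on, so their p-values are no separate evidence of a tissue difference. The difference was 0.92 (SE 0.18, limma adjusted p = 0.000247) for Gnal and 0.44 (SE 0.12, adjusted p = 0.003) for Tat, and without control tumours 9 and 15 it was 0.76 (adjusted p = 0.000113) and 0.47 (adjusted p = 0.00353). Ptprz1 differed by 1.61, or 1.12 without these tumours, with no test given, since it is above background in the control tumours alone. Otop2 did not pass at 0.23 (SE 0.18, adjusted p = 0.246), or 0.29 without these tumours (adjusted p = 0.176), and its sign turned to -0.0691 when the arrays were quantile normalised again. Tumour and epithelial samples differed at most genes, with 78.0% called, 35.6% higher and 42.3% lower in tumours, so a call in this comparison is not particular to the 4 genes. Cell composition differed as well: 12 of 13 smooth muscle and fibroblast markers and 12 of 12 myeloid markers were higher in tumours. In turn 10 of 12 T and NK cell markers were lower. The part of cell composition in the tissue differences was not tested. Split by genotype, Stat3-deleted mice had tumour minus epithelial differences of -0.11 for Gnal, 0.23 for Ptprz1, -0.66 for Otop2 and -0.04 for Tat. In control mice the same differences were 1.94, 2.98, 1.13 and 0.93, and 1.63, 2.02, 1.23 and 0.99 without tumours 9 and 15. For Ptprz1, with the array's 25th percentile as floor in the epithelial cells, control tumours were at least 4.93-fold higher, and at least 2.52-fold higher without tumours 9 and 15. These split values share the tumour contrast the genes were chosen on and are given without a test.

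**Figure D2:**
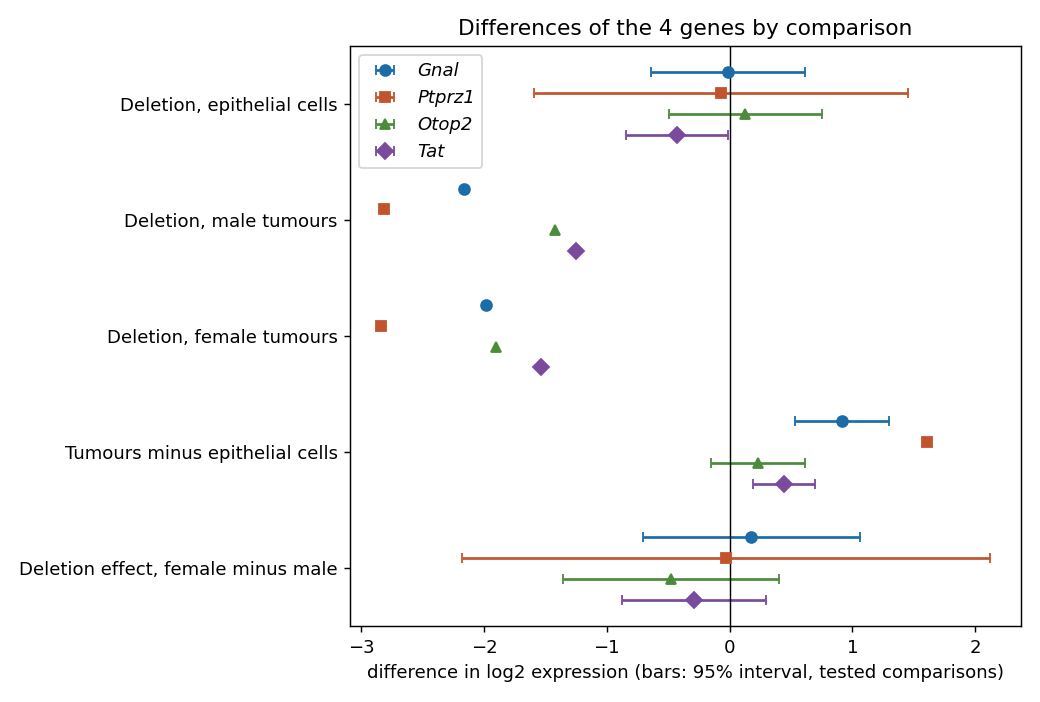
Differences in log2 expression for the 4 genes in 5 comparisons, Stat3-deleted minus control in the first 3 rows, with 95% intervals for the tested comparisons and none for the tumour comparisons the genes were chosen on or for Ptprz1 in tumours minus epithelial cells. The tumour points lie between -2.84 and -1.25, while the epithelial points lie between -0.43 and 0.13. Ptprz1 was at background in all epithelial cells and deleted tumours. Its point and interval for deletion in epithelial cells and for female minus male therefore cannot show a deletion effect or a sex difference in it.

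The 4 genes differed in how control tumours 9 and 15 compared with the other control tumours. Tumours 9 and 15, with high Hoxd13, had the 2 highest values of Gnal (7.71 and 7.44, against 6.17 to 7.02 in the other 4 control tumours) and of Ptprz1 (8.92 and 8.60, against 5.12 to 6.26). Otop2 lay inside the other tumours' range, and Tat was 7.13 and 7.54 against 7.28 to 7.64, with tumour 9 the lowest control. Mean values in tumours 9 and 15 minus the other control tumours were 0.95 for Gnal, 2.89 for Ptprz1, -0.32 for Otop2 and -0.17 for Tat, given without a test because the 2 arrays were picked by their expression. Without both tumours the deletion differences over both sexes were -1.76 for Gnal, -1.86 for Ptprz1, -1.77 for Otop2 and -1.45 for Tat. Only that of Ptprz1 moved by more than 1.5 times. Of 15 posterior gut markers, 0 differed between genotypes in tumours, with array means of 5.93 to 6.90 in deleted and 6.27 to 7.51 in control tumours; Hoxd13 differed by -1.11 (limma adjusted p = 0.524).

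**Figure D3:**
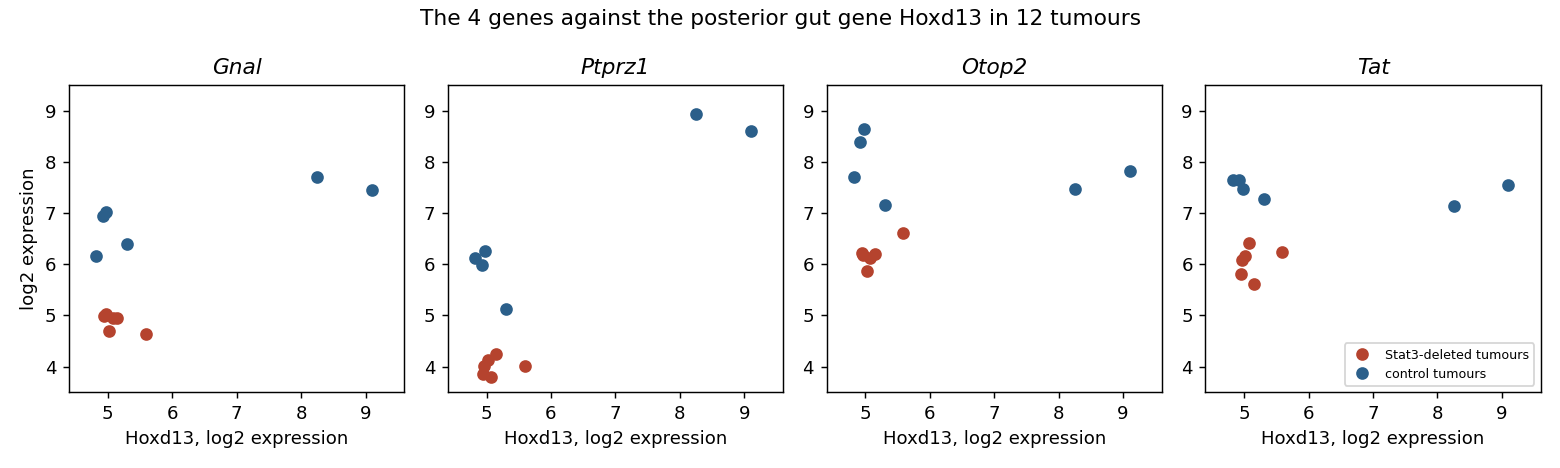
Log2 expression of each of the 4 genes against that of Hoxd13 in the 12 tumours, with Stat3-deleted tumours in red and control tumours in blue. The 2 control tumours with Hoxd13 of 8.25 and 9.10 hold the highest Gnal and Ptprz1, and values of Otop2 and Tat near those of the other control tumours.

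Within groups no pair of the 4 genes passed the test of moving together. Deviations from the group means over the 12 tumours were correlated for the 6 pairs, with an exact two-sided permutation within groups (1296 orders). Since Ptprz1 was at background in the deleted tumours, its pairs rest mainly on the control tumours. Gnal and Ptprz1 had Pearson r = 0.839 (exact permutation p = 0.0995, adjusted over the 6 pairs 0.42) and Spearman rho = 0.685 (exact p = 0.0671, adjusted 0.201). This rests on tumours 9 and 15, since r was 0.381 (exact permutation p = 0.812) without them; without the 2 arrays farthest from the median of Gnal it was 0.819. Gnal and Tat had r = -0.28 and rho = -0.58 (exact permutation p = 0.211 and 0.0424, adjusted 0.422 and 0.201). For the other 4 pairs r lay between -0.299 and 0.272, with adjusted exact permutation p for r of 0.42 or more.

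No tested pathway partner of the 4 genes passed in Stat3-deleted tumours, a comparison in which few genes passed at all. The absence of calls is therefore not read as a result about the partners. In 7 lists built around the 4 genes, with 164 distinct genes of which 149 were tested, 0 were called higher and 0 lower in tumours of both sexes by limma's adjusted p, where 0.71% of all genes were called, 0.289% higher and 0.422% lower. At an unadjusted p under 0.05 there were 20 of the 149 (13.4%), against 12.02% of all genes, and the median difference of the partners was -0.02, against -0.04 for all genes. In epithelial cells 0 of the 149 passed in either direction, with 10 (6.71%) at an unadjusted p under 0.05, against 6.8% of all genes. Between tumours and epithelial cells, averaged over genotypes, 48 were higher and 53 lower, 67.8% called, against 35.6% of all genes higher, 42.3% lower and 78.0% called. The called share of the 7 lists ran from 55.6% to 91.3%, so the counts by list below are set against 78.0% of all genes and are not read as results about a pathway. Whole tumours are compared here with epithelial cells, and the part of stroma and immune cells in the differences of single partners was not tested.

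For Gnal, 37 genes of cAMP signalling were tested, and in tumours they differed by -1.59 to 0.54 between genotypes. The lowest was Adcy8, a calcium-stimulated adenylyl cyclase, which missed the threshold at -1.59 (SE 0.36, limma adjusted p = 0.0516); without control tumours 9 and 15 the difference was -0.98. Adcy8 was 6.35, 7.28 and 6.83 in deleted male tumours, against 8.44, 7.09 and 9.77 in control male tumours. It was 6.69, 7.28 and 7.05 in deleted female tumours, against 7.98, 8.07 and 9.67 in control female tumours. The genotypes overlapped through control replicate 8, and tumours 9 and 15 were again highest. Ric8b, the chaperone of Golf alpha in the olfactory system, differed by 0.01 (adjusted p = 0.994), and Adcy3, the olfactory adenylyl cyclase, by -0.35 (adjusted p = 0.308). Gnat3, the taste and tuft cell G protein subunit, was not tested, with values of 3.05 to 4.06 on all arrays. The near relative Gnas shares its probe set annotation with other symbols and was not named. Against epithelial cells, tumours had 14 cAMP genes higher and 9 lower (78.0% of all genes called): the protein kinase A subunits Prkar1a and Prkacb rose by 1.15 and 1.37 (adjusted p = 5.21e-08 and 4.19e-07), and the G protein gamma subunit Gng4 fell by 0.69 (adjusted p = 7.09e-07).

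For Ptprz1, the 23 ligands, partners and substrates differed by -0.27 to 0.45 between deleted and control tumours. Ptn, the gene of the ligand pleiotrophin, differed by 0.23 (adjusted p = 0.955) and Mdk, that of midkine, by -0.04 (adjusted p = 0.96). Ptn was 6.36, 8.09 and 7.66 in deleted male tumours and 8.55, 6.47 and 9.34 in deleted female tumours, against 6.66, 6.25 and 9.93 in control male and 6.28, 6.49 and 9.51 in control female tumours. In the control tumours it was thus high where Ptprz1 was high, while in the deleted tumours it varied over a similar range with Ptprz1 at background. Cntn1, the neuronal binding partner contactin 1, was between 3.74 and 4.65 on all arrays. Tumours against epithelial cells had 11 genes of this list higher and 10 lower (78.0% of all genes called): the matrix glycoprotein Tnc rose by 4.17 (adjusted p = 4.98e-11), Ptn by 2.55 (adjusted p = 0.000751) and the related phosphatase Ptprg by 0.76 (adjusted p = 8.76e-06), while Mdk fell by 0.73 (adjusted p = 6.97e-05). The 18 genes of chondroitin sulfate synthesis differed by -0.27 to 0.31 between tumour genotypes, and 7 were higher and 3 lower in tumours than in epithelial cells (78.0% of all genes called), among them the sulfotransferases Chst11 (1.75, adjusted p = 9.4e-07) and Chst15 (1.19, adjusted p = 2.63e-07).

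For Otop2, 27 genes of proton, bicarbonate and chloride transport were tested, with tumour differences from -1.31 (Car1) to 1.81 (the goblet cell gene Clca1, adjusted p = 0.0573). The other otopetrins did not pass: Otop1 differed by -0.75 (SE 0.46, adjusted p = 0.566) and Otop3 by 0.40 (SE 0.35, adjusted p = 0.751). Otop1 was 6.13 to 6.68 in the 6 deleted tumours, against 8.76 and 9.10 in control tumours 9 and 15 and 5.99 to 6.62 in the other 4 control tumours. Its 2 high values are those of the Hoxd13-high tumours, in which Otop2 lay inside the range of the others. Otop3 was lower in tumours than in epithelial cells (-0.98, adjusted p = 0.00822), where Otop2 did not pass. In the same comparison 3 transport genes were higher, among them the chloride channel Ano1 (2.67, adjusted p = 7.52e-09), and 12 were lower (78.0% of all genes called), among them the sodium-proton exchanger Slc9a2 (-1.80, adjusted p = 2.78e-05) and the cytosolic carbonic anhydrase Car7 (-0.63, adjusted p = 1.31e-06). The 18 mouse genes named after markers of the human BEST4 and OTOP2 colonocyte differed by -0.98 to 0.77 between tumour genotypes, with a lowest adjusted p of 0.142; this cell type is described in human and its list was taken by symbol only.

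For Tat, none of the tested partner genes of phenylalanine and tyrosine breakdown passed in tumours. The 13 tested genes differed by -0.57 to 0.996 between tumour genotypes, with a lowest adjusted p of 0.12. The enzymes that act after Tat differed by 0.02 (Hpd, the next step, adjusted p = 0.99), 0.06 (Hgd, adjusted p = 0.932), -0.12 (Gstz1, adjusted p = 0.9) and -0.02 (Fah, the last step, adjusted p = 0.985). Tumours against epithelial cells had 4 genes of this list higher and 6 lower (78.0% of all genes called), with Fah rising by 0.68 (adjusted p = 0.000462), Hgd falling by 0.62 (adjusted p = 5.92e-05) and Got1, an aspartate aminotransferase, falling by 1.45 (adjusted p = 1.75e-06). The 19 liver-type genes that respond to glucocorticoids or cAMP as Tat does differed by -0.73 to 1.19 between tumour genotypes, with a lowest adjusted p of 0.153. In tumours against epithelial cells 2 of them were higher and 10 lower (78.0% of all genes called). The lower ones included the gluconeogenic gene Pck1 (-3.30, adjusted p = 4.49e-05) and the glucocorticoid-induced Tsc22d3 (-1.14, adjusted p = 3.99e-05). Tat was higher by 0.44 averaged over genotypes, but by genotype its difference was -0.04 in Stat3-deleted and 0.93 in control mice.

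**Figure D4:**
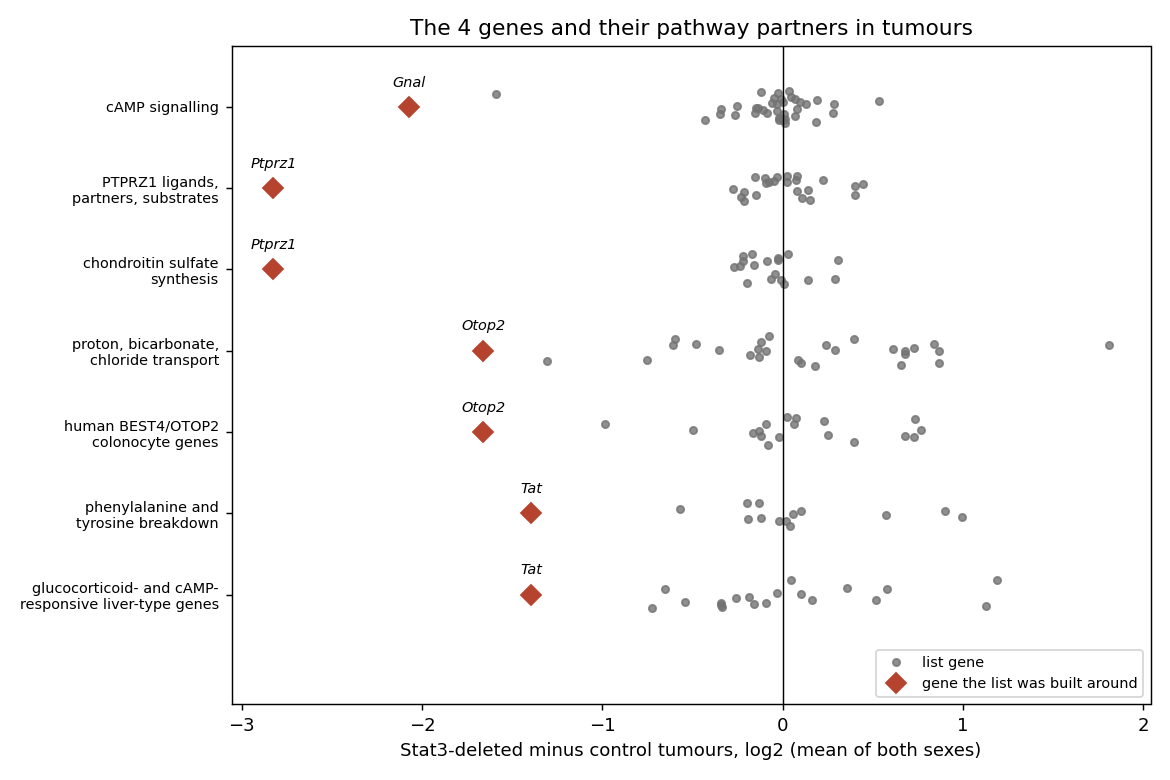
Stat3-deleted minus control difference in tumours, in log2 units as the mean of both sexes, for each tested gene of 7 lists (grey points) and for the gene each list was built around (red diamonds, -2.83 to -1.39). No grey point passed the adjusted threshold, and the lowest is Adcy8 at -1.59.

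By Pearson's r over all 18 arrays, the genes most like Gnal were Celsr1 (0.941), Ptprz1 (0.938), Padi4 (0.92), Adcy8 (0.91) and Chn1 (0.889), and those most like Ptprz1 were Adcy8 (0.961), Celsr1 (0.958), Gnal (0.938), Padi4 (0.936) and Zdhhc14 (0.922). The 2 genes thus shared Celsr1, Padi4 and Adcy8. Celsr1, an adhesion receptor of planar cell polarity, was 6.64 to 7.12 in the 6 deleted tumours, against 7.99 to 9.37 in the 6 control tumours with tumours 9 and 15 highest. Padi4, which converts arginine to citrulline in histones of neutrophils, was 4.87 to 5.60 in deleted tumours, against 5.41 to 7.99 in control tumours, with an overlap through control replicate 8.

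Otop2 was most like Tat (0.839), Retnlb (0.832), Gnal (0.822), Nubp2 (0.815) and Alas2 (0.799). Retnlb, a goblet cell antibacterial protein, was 3.71 to 5.76 in deleted tumours, against 5.56 to 6.95 in control tumours, with an overlap through deleted replicate 17. Tat was most like Faap100 (0.896), Lrg1 (0.882), Hpn (0.876), Mpv17l2 (0.867) and Rab4b (0.864). Lrg1, which encodes a leucine-rich glycoprotein secreted in inflammation, was 5.80 to 6.65 in deleted and 8.72 to 9.79 in control tumours, and in epithelial cells it had 5.41 to 5.69 in deleted and 5.33 to 5.69 in control cells. These neighbours were picked for likeness over arrays that include the tumour contrast, so their values describe the same split and are no separate evidence. When the group means were removed over the 12 tumours, the nearest genes were others: Pbrm1 (0.981) for Gnal, Lrrc42 (0.98) for Ptprz1, Tox4 (0.967) for Otop2 and Cyp7b1 (0.965) for Tat.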

How the data were processed

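Values were the deposited log2 expression values of 18 arrays, processed with RMA by the authors, per the submitters' processing notes; the RMA version, array library and genome build: not given in the sources used here. Of 35556 probe sets, 21789 had 1 gene symbol in the platform annotation, 1621 had several and 12146 were not listed. Each gene took its probe set with the highest mean, which gave 19938 genes, and the 17316 above an array's 25th percentile in at least 3 arrays were tested. A mean per group was fitted to all 18 arrays in limma 3.58.1 (R 4.3.3) with an intensity trend, two-sided, with Benjamini-Hochberg adjustment over the tested genes and a threshold of 0.05. The script was tested on simulated data. Named were the 4 genes, Stat3, fixed partners and markers, up to 4 called members of each list and the most similar genes. The members, lists and naming rule were chosen with earlier results of these data known. The number of arrays limits the precision. Alternatives were normalisation, filter, probe set choice, trend, array weights, samples in the fit and leaving out arrays.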

Additional observations from a re-analysis of the deposited data

How the results depend on the processing

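All 180 alternative values of the 4 genes' tumour differences stayed below 0, between -3.63 and -0.98. This sign was set by how the genes were chosen and is no support for the difference. Settings that changed only the filter, the trend, the probe set choice or the groups in the fit could not move these differences. Quantile normalisation moved the median of all genes by less than 0.05 in each of the 7 comparisons. No paired analysis was possible because the replicate numbers are unique over the series, and fitting only the compared groups adds nothing for tumours against epithelial cells, which use all groups. In epithelial cells 4 genes were called, 1134 with array weights and 2 without any 1 array. In male tumours 40 were called, 2 with only the compared groups, 117 without tumours 9 and 15, and 13 (without replicate 11) to 84 (without replicate 9) when leaving out an array. In female tumours 18 were called, 745 with array weights, 0 with only the compared groups, and 10 (without replicate 13) to 30 (without replicate 18). In both sexes 123 were called, 1414 with array weights, 43 with only the compared groups, 202 without tumours 9 and 15, and 64 (without replicate 16) to 265 (without replicate 18).

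With array weights Tat in epithelial cells was -0.56 and passed. Signs turned only for values that had not passed. With array weights, Ptprz1 was 0.0294 in epithelial cells, 1.19 for the female minus male effect and 0.38 for male minus female tumours; with quantile normalisation, its female minus male effect was 0.0512 and Otop2 in tumours minus epithelial cells was -0.0691. Leaving out arrays gave, in epithelial cells, -0.091 to 0.0822 for Gnal, -0.22 to 0.13 for Ptprz1 and -0.0233 to 0.27 for Otop2. The female minus male effect ranged over -0.16 to 0.50 for Gnal and -1.11 to 0.82 for Ptprz1. Male minus female tumours ranged over -0.0633 to 0.27 for Gnal, -0.66 to 0.31 for Ptprz1 and -0.19 to 0.18 for Otop2. Without the 2 farthest arrays, within-group r was -0.846 for Gnal and Otop2, 0.742 for Ptprz1 and Otop2 (also without tumours 9 and 15) and -0.04 for Otop2 and Tat. The causes were not tested.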
